A study of Mus musculus with 6 samples.

Results

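The mitochondrially encoded genes of the mouse were examined here in tibialis anterior muscle that received a viral vector for the splicing factor RBM20 or for green fluorescent protein (GFP). They were taken as every gene of the deposited count table whose GENCODE mouse symbol starts with mt-, which gave 37 of 55401 gene identifiers: 13 protein-coding genes, 2 ribosomal RNA (rRNA) genes and 22 transfer RNA (tRNA) genes. The study asked how the muscle clock gene Bmal1 acts on titin splicing through RBM20. All 6 muscles carried the HSA-MCM-Bmal1-/- genotype, in which tamoxifen turns on a Cre recombinase under the human skeletal actin promoter and removes Bmal1 from skeletal muscle fibres, so no muscle with intact Bmal1 enters the comparison. The mice were C57BL/6 males treated with 2 mg of tamoxifen a day for 5 days at 12 to 16 weeks of age. The vector was injected into the muscle 4 weeks later, and the muscle was collected after another 4 weeks.

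One group received AAV-GFP (n = 3) and the other AAV-RBM20 (n = 3), an adeno-associated virus with an HA-tagged mouse Rbm20 cDNA behind a CMV promoter. More of the RBM20 virus was injected than of the GFP virus, which means that transgene and vector dose cannot be told apart. RNA came from whole muscle powder, was depleted of rRNA and was sequenced with a stranded kit. The labels do not say whether the 3 samples of a group are separate mice, or whether samples of the 2 groups share a mouse. The study's lane list for its protein blots gives some GFP and RBM20 muscles the same animal number, marked R and L. It does not link those muscles to the sequenced samples, so p-values measure only the spread between these samples. In bulk muscle, fewer cells of a type and less RNA per cell cannot be told apart.

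Mitochondrial DNA (mtDNA) is a small circular genome that codes for core subunits of the respiratory chain and ATP synthase, together with the rRNAs and tRNAs of the organelle's own ribosomes. Each strand is transcribed by the nuclear-encoded polymerase POLRMT into long precursors, and most mRNAs and both rRNAs are cut free at the tRNAs that lie between them. Skeletal muscle is rich in mitochondria, and mitochondrial transcripts are abundant in its RNA. In the annotation, 28 of the 37 genes lay on the plus strand of mtDNA and 9 on the minus strand, with mt-Nd6 the sole protein-coding gene among the latter. Nuclear genomes, that of the mouse included, also hold inserted stretches of mtDNA.

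Such copies bear directly on how these genes can be counted, because a read of 100 bases that matches both places equally well has no unique origin. Chromosome 1 (GRCm38, GENCODE M21) carries a run of annotated unprocessed pseudogenes between 24611535 and 24616197, a span of 4663 bases, that follows the order of mtDNA. Of these, 6 were aligned here to the mitochondrial genes they copy, and Gm10222, at 24612407 to 24612700 within the same run, was compared with mt-Nd4l by shared words only. Gm10925 matched mt-Atp6 over 678 bases, Gm28437 matched mt-Co3 over 783, Gm28661 matched mt-Co2 over 681 and Gm28439 matched the first 876 bases of mt-Nd4, each with 0 mismatches. Gm28438 differed from mt-Nd3 at 1 of 345 bases (T3C, counted from the first base of the mitochondrial gene). Gm29216 differed from bases 1054 to 1545 of mt-Co1 at 6 of 492 bases, all within its first bases. The sequences below show how little separates a member from its copy. They are printed 5′ to 3′ in the sense of each gene, from GENCODE M21 transcripts. In the mt-Nd3 and mt-Co1 pairs capitals mark the bases that differ, and in mt-Co2 they mark the last bases of the gene, which lie beyond the copy.
mt-Nd3 (chrM:9459-9518, plus strand): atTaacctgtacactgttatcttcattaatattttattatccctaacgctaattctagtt
Gm28438 (chr1:24613060-24613119, minus strand): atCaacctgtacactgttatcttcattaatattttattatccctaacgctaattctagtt
mt-Co1 (chrM:6381-6440, plus strand): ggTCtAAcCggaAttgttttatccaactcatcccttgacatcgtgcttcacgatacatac
Gm29216 (chr1:24616138-24616197, minus strand): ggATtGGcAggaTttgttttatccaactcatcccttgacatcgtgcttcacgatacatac
mt-Co2 end (chrM:7637-7696, plus strand): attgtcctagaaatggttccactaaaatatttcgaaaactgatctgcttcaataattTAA
Gm28661 end (chr1:24614885-24614941, minus strand): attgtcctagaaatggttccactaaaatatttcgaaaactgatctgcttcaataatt

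Among all 100-base words of each gene, the share also found in another annotated gene was 99.9% for mt-Co3, 99.5% for mt-Co2 and mt-Atp6, 98.5% for mt-Nd4l (in Gm10222) and 97.6% for mt-Nd3. It was 60.8% for mt-Nd4, 30.8% for mt-Co1 and 3.2% for mt-Nd2. The shared words of mt-Nd2 lay in Gm13339 on chromosome 2, where Gm13340 and Gm13341 also held words of mt-Co1 and mt-Co2. These chromosome 2 pseudogenes were not aligned or summed here. The other 7 members, mt-Rnr1, mt-Rnr2, mt-Nd1, mt-Atp8, mt-Nd5, mt-Nd6 and mt-Cytb, shared 0 words with any annotated gene. The stretch of chromosome 1 between Gm10925 and Gm28661 (24614652 to 24614884) holds no annotated gene and is 233 bases long. The mtDNA between the copied parts of mt-Co2 and mt-Atp6 (7694 to 7926), where most of mt-Atp8 lies, also has 233 bases. The genome sequence of that stretch was not read here.

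The 6 libraries held 41400132 to 54226618 counts. Rbm20 itself, the gene delivered, stood at 170, 165 and 164 CPM (the usual counts-per-million unit, on library sizes scaled by the trimmed mean of M-values) with AAV-GFP and at 499, 545 and 406 CPM with AAV-RBM20, so every library matched its label. Arntl, the symbol of Bmal1 in the table, stood at 31.0, 36.0 and 38.1 CPM with AAV-GFP and at 24.5, 27.6 and 26.9 CPM with AAV-RBM20. The libraries numbered 3 stood apart in both groups: Ttn, the titin gene, held 4.48% of all counts in AAV-GFP replicate 3 and 9.05% in AAV-RBM20 replicate 3, against 16.9% to 17.8% in the other 4. Muscle identity was clear from the summed CPM of 10 skeletal muscle fibre markers, 114368 to 127968 with AAV-GFP and 78003 to 119173 with AAV-RBM20, against 2.61 to 8.89 and 2.26 to 7.70 for 5 cardiac markers. Summed CPM ranged from 44.4 to 85.9 and 80.0 to 133 for slow fibre markers, from 138 to 329 and 212 to 328 for endothelial markers, from 0.295 to 13.4 and 0.880 to 8.42 for adipocyte markers, from 12.2 to 34.3 and 17.0 to 26.7 for Schwann cell markers and from 4.06 to 10.6 and 2.69 to 27.3 for erythroid markers, in the same group order. Macrophage markers summed to 20.3, 18.1 and 73.3 CPM with AAV-GFP and to 53.0, 47.6 and 119 CPM with AAV-RBM20. Fibroblast markers summed to 481, 454 and 883 CPM and to 857, 664 and 1052 CPM, so both lists were highest within each group in the library numbered 3. No marker was at 0 in every library, and the part of these cell types in the results below was not tested.

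The mitochondrially encoded genes held between 6.41% and 12.5% of all counts. Their share was 7.62%, 7.66% and 12.5% in the AAV-GFP libraries (9.26% ± 2.81, SD, n = 3) and 6.41%, 6.56% and 11.4% in the AAV-RBM20 libraries (8.11% ± 2.83, SD, n = 3). The groups overlapped, the difference of -1.15 percentage points was smaller than the SD within either group, and the library numbered 3 was the high value in each. Without both of those libraries the difference was -1.16 points, and the 2 remaining AAV-RBM20 libraries lay below the 2 remaining AAV-GFP libraries. Leaving out AAV-GFP replicate 3 alone turned the difference to 0.47 points.

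**Figure D1:**
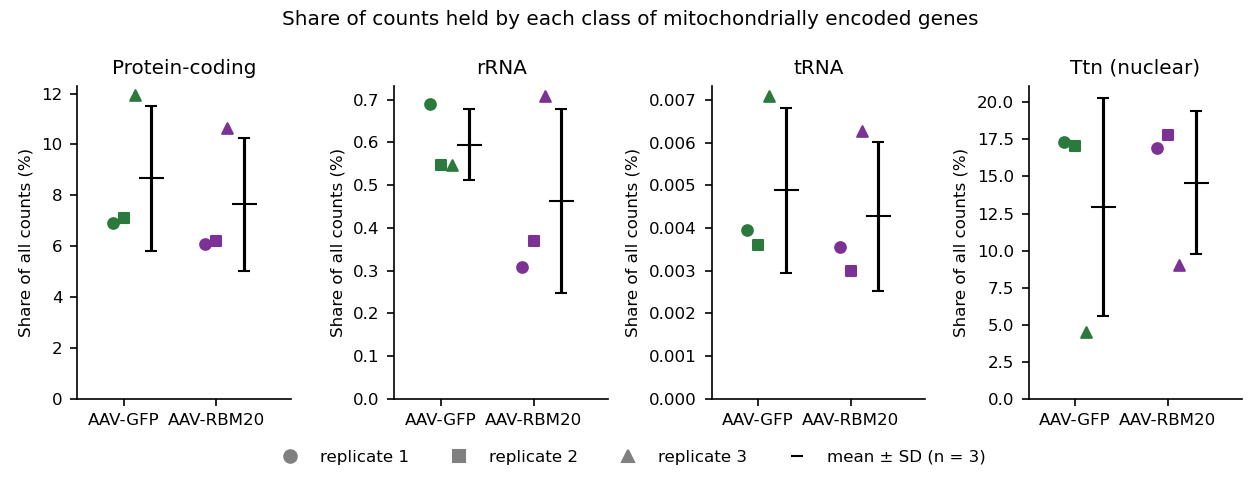
Share of all counts (%) held by the protein-coding, rRNA and tRNA genes of mtDNA and by the nuclear gene Ttn in each library, with points for replicates 1 to 3 and bars for the group mean ± SD (n = 3). The library numbered 3 was the highest of its group for the protein-coding genes (12.0% and 10.7%) and the lowest for Ttn (4.48% and 9.05%), and the groups overlapped in each panel.

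Protein-coding transcripts made up most of this share. They held 6.93%, 7.11% and 12.0% of all counts with AAV-GFP and 6.10%, 6.19% and 10.7% with AAV-RBM20. The rRNA genes, whose transcripts the library preparation was meant to remove along with the cytosolic rRNA, held 0.691%, 0.547% and 0.546% with AAV-GFP and 0.308%, 0.370% and 0.709% with AAV-RBM20. Here AAV-GFP replicate 1 was high in its group, AAV-RBM20 replicate 3 was the highest of all 6 libraries, and the groups overlapped. The tRNA genes held 0.00395%, 0.00360% and 0.00710% with AAV-GFP and 0.00356%, 0.00300% and 0.00626% with AAV-RBM20. As a share of mitochondrial counts, rRNA accounted for 9.06%, 7.13% and 4.37% with AAV-GFP and for 4.81%, 5.64% and 6.23% with AAV-RBM20, so the AAV-GFP libraries spanned a range that enclosed all 3 AAV-RBM20 libraries.

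Members were set against each other per length, and on that scale the protein-coding genes fell into a high and a low set. Averaged over the 6 libraries, mt-Co1, the catalytic core of cytochrome c oxidase, had the highest level, 21407 CPM per kb. It was followed by mt-Cytb of the cytochrome bc1 complex with 11291 CPM per kb, and by the NADH dehydrogenase subunits mt-Nd1 (9281), mt-Nd2 (6775), mt-Nd5 (5852), mt-Nd4 (5076) and mt-Nd6 (1712 CPM per kb). Far below stood the cytochrome c oxidase subunits mt-Co3 (184) and mt-Co2 (162), mt-Atp6 of ATP synthase (86.7), mt-Nd3 (36.8), mt-Nd4l (21.5) and mt-Atp8 (1.39 CPM per kb). The latter 6 genes lie in a single run of mtDNA, from mt-Co2 to mt-Nd4l, and together held 0.358% to 0.478% of the protein-coding mitochondrial counts in every library. Of these 6, all but mt-Atp8 were genes with 97.6% or more of their words in a nuclear copy. The part of shared sequence in their low counts was not tested, because how reads with several matching places were treated is not given in the sources used here. Within the high set the order depended on the scale. In CPM per 1000 unshared words, mt-Co1 stood at 33073, mt-Nd4 at 13934, mt-Cytb at 12361, mt-Nd1 at 10352, mt-Nd2 at 7736 and mt-Nd5 at 6188.

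**Figure D2:**
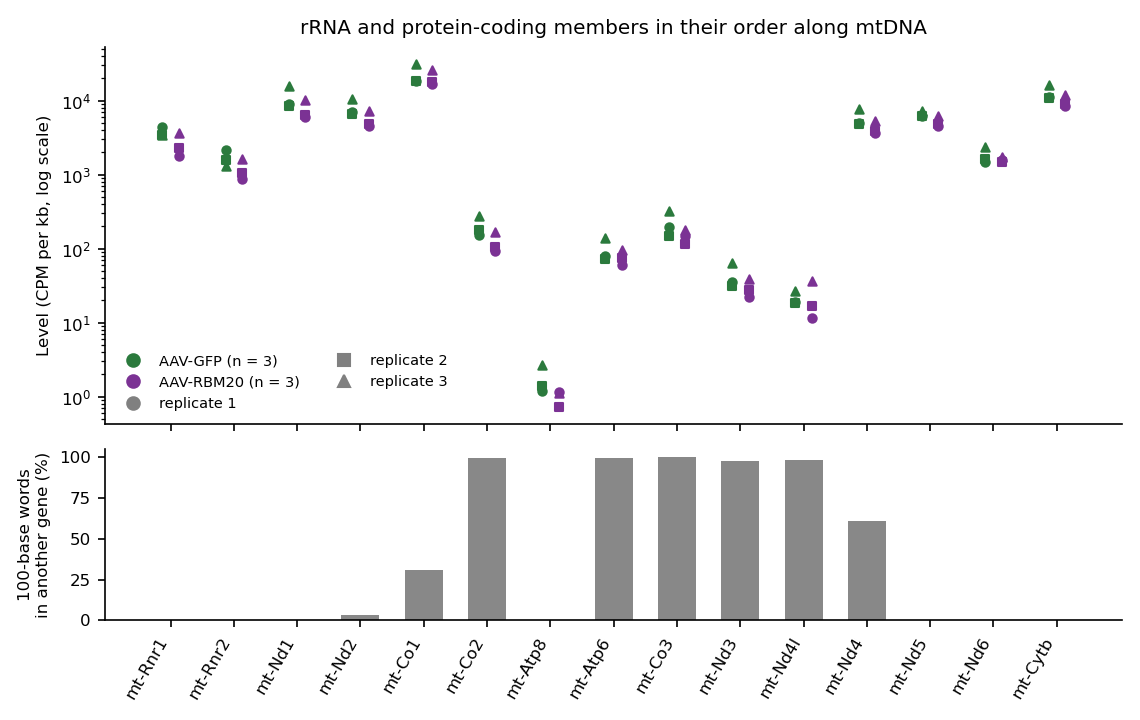
Upper panel, level of each rRNA and protein-coding member in CPM per kb on a log axis, 1 point per library (AAV-GFP and AAV-RBM20, n = 3 each). Lower panel, percent of the gene's 100-base words found in another annotated gene. The 5 genes with 97.6% or more shared words, and mt-Atp8 with 0, had mean levels of 184 CPM per kb or less, whereas the members with 60.8% or less other than mt-Atp8 had means of 1434 or more.

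The copies themselves carried counts, and 3 of the 6 varied most between libraries relative to their mitochondrial counterparts. Gm28438 had 343, 413 and 4651 counts with AAV-GFP and 377, 301 and 490 with AAV-RBM20, so AAV-GFP replicate 3 alone was high. Its ratio to mt-Nd3 was 3.93 in that library and 0.687 to 0.902 in the other 5. Gm28661 had 1749, 1904 and 6529 counts and 1864, 1307 and 8700 counts, which placed both libraries numbered 3 above the rest, and its ratio to mt-Co2 reached 1.56 in AAV-RBM20 replicate 3 against 0.373 to 0.664 elsewhere. Gm29216 had 10604, 1794 and 13276 counts and 6947, 1731 and 4016 counts, and never exceeded 0.00910 of the mt-Co1 count. Of the others, Gm10925 had more counts than mt-Atp6 in every library, at ratios from 1.17 to 1.88. Counts of mt-Atp6, mt-Co2, mt-Co3, mt-Nd3 and mt-Nd4l are therefore uncertain, as they are for their copies. For mt-Atp8 this could not be judged, because the stretch of chromosome 1 between Gm10925 and Gm28661 was not read.

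Both rRNAs of the mitochondrial ribosome passed the low-count filter. mt-Rnr1, the small subunit rRNA (chrM, 70 to 1024), stood at 4219, 3246 and 3323 CPM with AAV-GFP and at 1704, 2157 and 3437 CPM with AAV-RBM20. AAV-RBM20 replicate 3 lay above 2 of the 3 AAV-GFP libraries, and the groups overlapped. The log2 fold change of AAV-RBM20 over AAV-GFP was -0.56 ± 0.27 (SE), with adjusted p = 0.641 in edgeR's quasi-likelihood test. mt-Rnr2, the large subunit rRNA (1094 to 2675), stood at 3405, 2500 and 2074 CPM with AAV-GFP and at 1360, 1667 and 2606 CPM with AAV-RBM20. Again only AAV-RBM20 replicate 3 reached the AAV-GFP range, and the log2 fold change was -0.50 ± 0.28 with adjusted p = 0.657 in edgeR. Without both libraries numbered 3, which leaves 2 per group, the estimates were -0.94 ± 0.18 and -0.96 ± 0.19, with adjusted p of 0.0680 and 0.0906 in edgeR.

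Gm23935, a nuclear locus of the rRNA list, stood at 1040, 754 and 404 CPM with AAV-GFP and at 407, 369 and 435 CPM with AAV-RBM20. Like both mitochondrial rRNAs, it was highest in AAV-GFP replicate 1 and was lower in AAV-RBM20 replicates 1 and 2 than in replicate 3. Unlike in those, AAV-GFP replicate 3 (404 CPM) lay just below AAV-RBM20 replicate 1 (407 CPM). Removal of rRNA in the library step was not measured, and its part in the rRNA values was not tested. The mt-Rnr1 to mt-Rnr2 count ratio was 1.24, 1.30 and 1.60 with AAV-GFP and 1.25, 1.29 and 1.32 with AAV-RBM20, so AAV-GFP replicate 3 alone stood outside a narrow band. Of the 10 nuclear rRNA and related loci listed, 7 were in the table and 4 were tested. Of these 4, 0 passed at adjusted p and 3 were lower at an unadjusted p under 0.05 in edgeR, against 3.82% of all genes. Their median log2 fold change was -0.89. Gm23935 gave -0.86 ± 0.31 with overlap, whereas Gm15564 (-1.07 ± 0.32) and Rn7s1 (-0.92 ± 0.39, at 10 to 34 counts) did not overlap. Of all genes tested, 9.04% did not overlap with AAV-RBM20 lower. Gm23935, Gm15564 and Rn7s1 each had an adjusted p of 0.618 in edgeR. Rn7sk, an abundant small nuclear RNA, gave 0.10 ± 0.20 and made up most of the list's summed CPM, 2764 to 3241 with AAV-GFP and 2628 to 3459 with AAV-RBM20.

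No mitochondrially encoded gene passed the test between the groups. In edgeR, 0 of the 22 members that passed the low-count filter had an adjusted p under the 0.05 threshold. The same held for 0 of 17222 genes in all (0.0%), so the members' count equals the background. The lowest adjusted p of any gene in that edgeR fit was 0.121. Rbm20, the gene delivered, was thus not called either, although its CPM ranges lay far apart. A count of 0 in this fit therefore does not show that the members were unchanged. DESeq2 without a covariate called 0 members and 71 of the 20362 genes it tested (0.349%). At an unadjusted p under 0.05, 1 of the 22 was called in edgeR, mt-Co2, in the lower direction, where the background was 3.82% of genes lower and 7.9% in either direction. Of the 22, 19 had a negative log2 fold change, against 48.7% of all genes tested, and their median was -0.47, against 0.009 over all genes. The members are cut from shared precursors and are read from the same 6 libraries, so these signs are not independent of each other. The median was -0.38 when both libraries numbered 3 were left out, -0.21 when only the AAV-GFP library of that number was and -0.64 when only its AAV-RBM20 partner was.

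**Figure D3:**
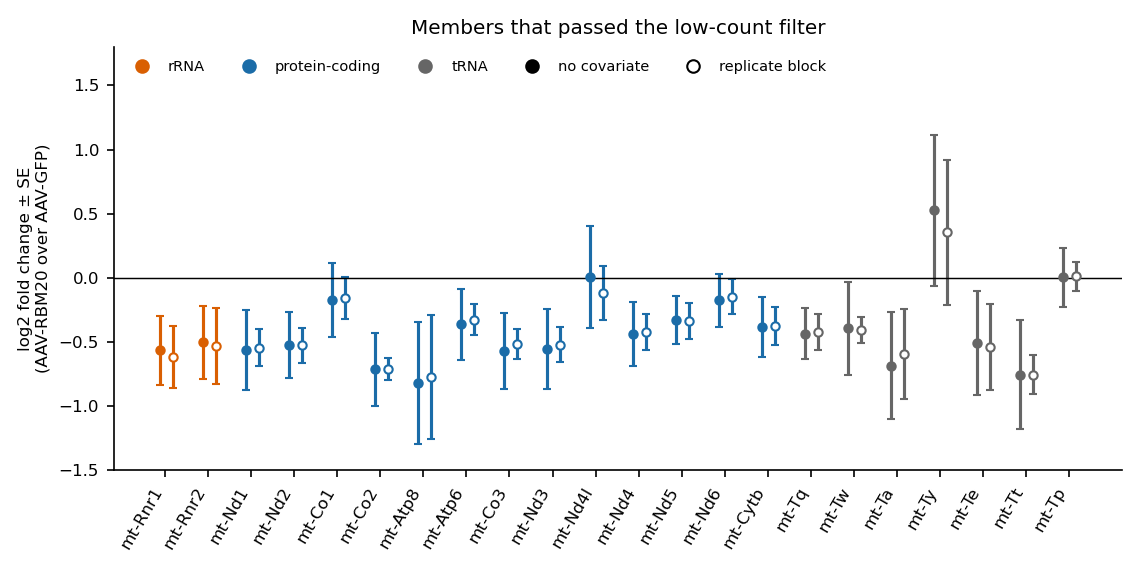
log2 fold change ± SE of AAV-RBM20 over AAV-GFP (3 libraries each) for the 22 members that passed the low-count filter, from edgeR without a covariate (filled) and with the replicate number as a block (open). Estimates without a covariate run from -0.82 for mt-Atp8 to 0.53 for mt-Ty, and 19 of 22 lie below 0.

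The replicate number in the sample titles was also fitted as a block, since same-numbered libraries deviated together, most clearly those numbered 3. The AAV-RBM20 libraries are numbered 4 to 6 in the count table, and AAV-GFP replicate 2 correlated about as well with AAV-RBM20 replicate 1 (0.22) as with replicate 2 (0.20). With the block, edgeR called 1 member, mt-Co2, and 25 of all genes (0.145%). At an unadjusted p under 0.05 the blocked fit called 13 of the 22 members, against 18.8% of all genes. In 14 of the 22 the AAV-RBM20 library was the lower of each same-numbered pair, against 23.0% of all genes. Ranges of CPM did not overlap, with AAV-RBM20 lower, for 2 of the 22 (mt-Atp8 and mt-Nd5), against 9.04% of all genes. Both libraries numbered 3 left out, edgeR called 6 members, mt-Nd1, mt-Nd2, mt-Co2, mt-Nd4, mt-Nd5 and mt-Cytb, all lower with AAV-RBM20, against 4.0% of all genes. DESeq2 with the block called 8, these 6 with mt-Co3 and mt-Tt, against 3.52% of the genes it tested. The fit without both libraries numbered 3 has 2 libraries per group, which the labels do not say are separate mice. In each group those 2 differed less from each other than from the library numbered 3. Chi-square per degree of freedom was 15.1 (AAV-GFP) and 24.9 (AAV-RBM20) between them, and 223 to 545 against that library.

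mt-Co2, the copper-binding subunit of cytochrome c oxidase that receives electrons from cytochrome c, stood at 103, 122 and 187 CPM with AAV-GFP and at 64.4, 72.5 and 115 CPM with AAV-RBM20. Each AAV-RBM20 library was lower than the same-numbered AAV-GFP library, yet AAV-RBM20 replicate 3 lay above AAV-GFP replicate 1, so the groups overlapped. Its log2 fold change was -0.71 ± 0.28 with adjusted p = 0.618 in edgeR, and -0.71 ± 0.086 with adjusted p = 0.0388 once the replicate block was fitted. When the 6 aligned copies were summed with their mitochondrial genes, an alternative chosen after the data were seen, the mt-Co2 estimate was -0.33 ± 0.46 without the block and -0.44 ± 0.13 with it, with adjusted p of 0.844 and 0.159 in edgeR. The blocked call thus rests on counting mt-Co2 apart from Gm28661, with which it shares 99.5% of its words.

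The other cytochrome c oxidase subunits did not pass in either edgeR fit. mt-Co1 stood at 28658, 28423 and 48016 CPM with AAV-GFP and at 25895, 27435 and 40013 CPM with AAV-RBM20. The 2 libraries numbered 3 were far above the other 4, which lay close together, and the log2 fold change was -0.17 ± 0.29 with adjusted p = 0.870 in edgeR. It was 0.12 without AAV-GFP replicate 3. mt-Co3, a subunit near the catalytic core, stood at 151, 114 and 251 CPM with AAV-GFP and at 115, 91.3 and 142 CPM with AAV-RBM20, and the groups overlapped.

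Among the NADH dehydrogenase subunits on the plus strand, which form part of its membrane arm, mt-Nd1 stood at 8578, 8055 and 15138 CPM with AAV-GFP and at 5720, 6082 and 9717 CPM with AAV-RBM20. mt-Nd2 stood at 7175, 6931 and 10768 CPM and at 4764, 4959 and 7596 CPM. In both genes AAV-RBM20 replicate 3 was the sole library of its group inside the AAV-GFP range. The log2 fold change was -0.56 ± 0.31 for mt-Nd1 and -0.52 ± 0.26 for mt-Nd2, with adjusted p of 0.657 and 0.650 in edgeR. Without both libraries numbered 3 they were -0.49 ± 0.081 and -0.53 ± 0.077, with adjusted p of 0.00891 and 0.00539 in edgeR.

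mt-Nd4 stood at 6800, 6655 and 10682 CPM with AAV-GFP and at 5084, 5362 and 7386 CPM with AAV-RBM20, an overlap through AAV-RBM20 replicate 3 alone. mt-Nd5 stood at 11235, 11232 and 13166 CPM and at 8404, 8841 and 11168 CPM. Its groups did not overlap, though AAV-RBM20 replicate 3 came just below the lowest AAV-GFP library, and its log2 fold change was -0.33 ± 0.19 with adjusted p = 0.657 in edgeR. The short subunits mt-Nd3 and mt-Nd4l had few counts. mt-Nd3 stood at 12.3, 11.0 and 22.5 CPM with AAV-GFP and at 7.77, 9.75 and 13.7 CPM with AAV-RBM20. mt-Nd4l stood at 5.61, 5.46 and 8.04 CPM and at 3.46, 4.98 and 10.8 CPM, with AAV-RBM20 replicate 3 the highest of all. Its log2 fold change was 0.01 ± 0.40 with adjusted p = 0.995 in edgeR, and its sign turned under several other settings, the replicate block (-0.11) included.

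mt-Nd6 is the NADH dehydrogenase subunit transcribed from the opposite strand (chrM, 13552 to 14070, minus strand). It stood at 757, 836 and 1234 CPM with AAV-GFP and at 827, 777 and 899 CPM with AAV-RBM20. The AAV-RBM20 libraries lay within the AAV-GFP range, and the log2 fold change was -0.18 ± 0.20 with adjusted p = 0.808 in edgeR. It was 0.017 without both libraries numbered 3, a setting in which mt-Nd1 and mt-Nd2 were called lower. The difference between mt-Nd6 and those genes was not tested. Relative to all plus-strand protein-coding members, mt-Nd6 counts came to 1.00%, 1.13% and 1.06% with AAV-GFP and to 1.38%, 1.23% and 0.999% with AAV-RBM20. Those percentages overlapped, since AAV-RBM20 replicate 3 lay level with AAV-GFP replicate 1.

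mt-Cytb, the cytochrome b of the bc1 complex, stood at 12953, 12342 and 18545 CPM with AAV-GFP and at 9686, 10221 and 13755 CPM with AAV-RBM20, again with AAV-RBM20 replicate 3 inside the AAV-GFP range. Its log2 fold change was -0.38 ± 0.23 with adjusted p = 0.663 in edgeR. Of the ATP synthase subunits, mt-Atp6, which lines the proton path, stood at 53.7, 50.1 and 95.4 CPM and at 40.4, 50.3 and 64.4 CPM, and the groups overlapped. mt-Atp8 had only 10, 12 and 29 counts with AAV-GFP and 13, 6 and 11 with AAV-RBM20. On the CPM scale its groups did not overlap (0.246, 0.288 and 0.551 CPM against 0.238, 0.149 and 0.227 CPM), by a margin smaller than 1 count. Its log2 fold change of -0.82 ± 0.48 was the lowest of all members, with adjusted p = 0.658 in edgeR.

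The make-up of the protein-coding counts was then described apart from their total. mt-Co1 held 37.5%, 38.0% and 40.7% of them with AAV-GFP (38.7% ± 1.70, SD, n = 3) and 42.7%, 42.9% and 44.0% with AAV-RBM20 (43.2% ± 0.702, SD, n = 3). The groups did not overlap, and AAV-RBM20 was higher by 4.52 percentage points, against a pooled SD of 1.30. The difference ranged from 3.90 to 5.49 points with 1 library left out and was 5.09 points without both libraries numbered 3. Shares of a whole are tied to each other, so a higher share of mt-Co1 lowers the sum of the others.

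**Figure D4:**
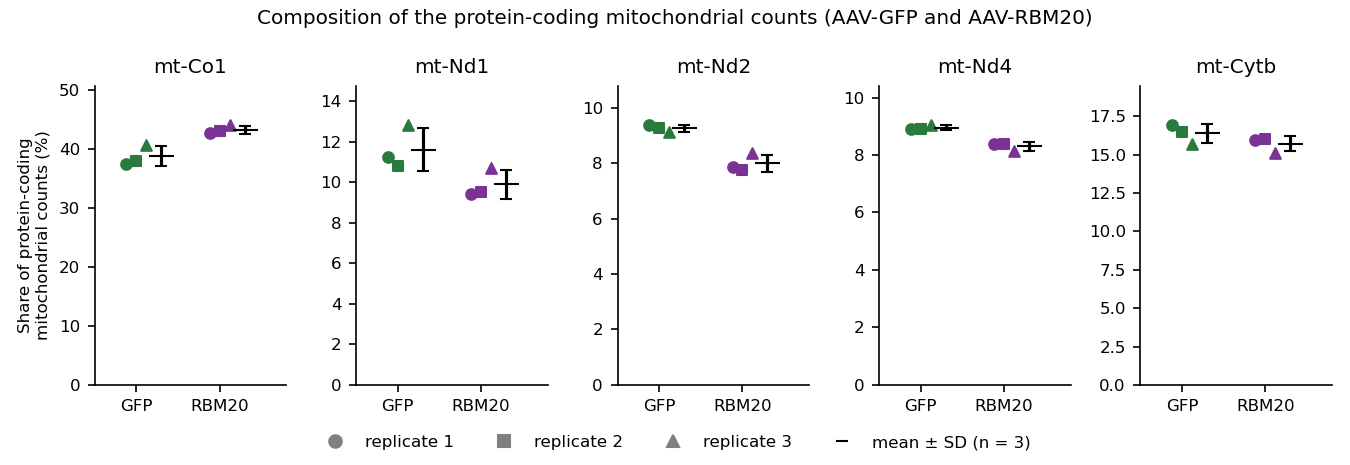
Share (%) of protein-coding mitochondrial counts held by mt-Co1, mt-Nd1, mt-Nd2, mt-Nd4 and mt-Cytb in each library, with points for replicates 1 to 3 and bars for the group mean ± SD (n = 3). mt-Co1 ran from 37.5% to 40.7% with AAV-GFP and from 42.7% to 44.0% with AAV-RBM20, mt-Nd1, mt-Nd2 and mt-Nd4 were lower with AAV-RBM20 without overlap, and mt-Cytb overlapped.

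Lower shares without overlap were found for 4 of the 13 genes. mt-Nd1 held 11.2%, 10.8% and 12.8% with AAV-GFP and 9.44%, 9.52% and 10.7% with AAV-RBM20. mt-Nd2 held 9.38%, 9.27% and 9.12% and then 7.86%, 7.76% and 8.36%. The corresponding shares of mt-Nd4 were 8.89%, 8.90% and 9.04% and then 8.39%, 8.39% and 8.13%. In these 3 genes no library numbered 3 crossed into the other group. mt-Co2 held 0.135% to 0.163% with AAV-GFP and 0.106% to 0.126% with AAV-RBM20, counted apart from its copy Gm28661. The ratio of Gm28661 to mt-Co2 counts was 1.56 in AAV-RBM20 replicate 3 and 0.373 to 0.664 elsewhere, so the lower share of mt-Co2 is uncertain. With mt-Co1, 5 of 13 genes did not overlap in either direction, against 15.3% of all 17222 genes when each was divided by the same protein-coding mitochondrial total. Of those 2627 genes, 2469 were higher and 158 lower with AAV-RBM20. The 13 members are parts of that total and the other genes are not, so the 15.3% is not a like background for them. mt-Nd5 held 14.7%, 15.0% and 11.1% and then 13.9%, 13.8% and 12.3%, and mt-Cytb 16.9%, 16.5% and 15.7% and then 16.0%, 16.0% and 15.1%, both with overlap. Reads that could not be placed between mt-Co1, mt-Co2 or mt-Nd4 and their copies bear on these shares, and their part was not tested.

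The tRNA genes are shorter than a sequencing read. Of the 22, 9 were at 0 in every library (mt-Tf, mt-Tv, mt-Tl1, mt-Tn, mt-Tk, mt-Tr, mt-Th, mt-Ts2 and mt-Tl2), which allows up to 3 counts, or 0.0553 to 0.0725 CPM of the library total, as counting error only. A further 6 (mt-Ti, mt-Tm, mt-Tc, mt-Ts1, mt-Td and mt-Tg) had counts but did not pass the filter, and 7 were tested. The sequences below are shown because the tRNAs with the most counts and those with 0 have like lengths. They are printed 5′ to 3′ in the sense of the tRNA from GENCODE M21 (GRCm38), and capitals mark bases shared with a neighbouring annotated gene.
mt-Tw (chrM:4950-5016, plus strand): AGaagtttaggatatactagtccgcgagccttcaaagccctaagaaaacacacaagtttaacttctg
mt-Tq (chrM:3772-3842, minus strand): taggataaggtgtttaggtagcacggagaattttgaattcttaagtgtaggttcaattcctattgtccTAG
mt-Tp (chrM:15356-15422, minus strand): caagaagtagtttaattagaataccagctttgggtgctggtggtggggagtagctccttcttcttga
mt-Tt (chrM:15289-15355, plus strand): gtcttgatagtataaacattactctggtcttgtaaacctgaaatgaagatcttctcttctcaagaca
mt-Tf (chrM:1-68, plus strand): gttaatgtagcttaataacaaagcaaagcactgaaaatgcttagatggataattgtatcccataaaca
mt-Th (chrM:11546-11612, plus strand): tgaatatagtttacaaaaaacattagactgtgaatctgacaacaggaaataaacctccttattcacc

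Their neighbours on mtDNA differed. In 9 tRNA genes at least 1 side has a stretch of 100 or more bases without an annotated gene on the same strand, counting only the annotation of the linear mtDNA sequence. Of these 9, 8 had counts in every library, up to 1699, and the ninth, mt-Tf at the start of the linear sequence, was at 0. mt-Ts1, open on both sides, had only 1 to 8 counts, no more than mt-Ti without such a stretch (4 to 10). Among the other 13, which are hemmed in by genes on their own strand, 8 were at 0 throughout, only mt-Ti had a count in every library, and no library gave more than 10 counts. The split was drawn after the counts were seen and is given without a test. On mtDNA, mt-Ts1, mt-Td, mt-Tk, mt-Tg and mt-Tr lie from the end of mt-Co1 to the start of mt-Nd4. The chromosome 1 run of copies follows that part of mtDNA, and of the tRNAs with a free stretch only mt-Ts1 lies there. mt-Tf, mt-Tv, mt-Tl1, mt-Tn, mt-Th, mt-Ts2 and mt-Tl2, at 0 in every library, lie outside it. Whether reads of any tRNA also match chromosome 1 was not tested. Whether the counts come from mature tRNAs or from longer RNAs that reach across them was not tested.

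**Figure D5:**
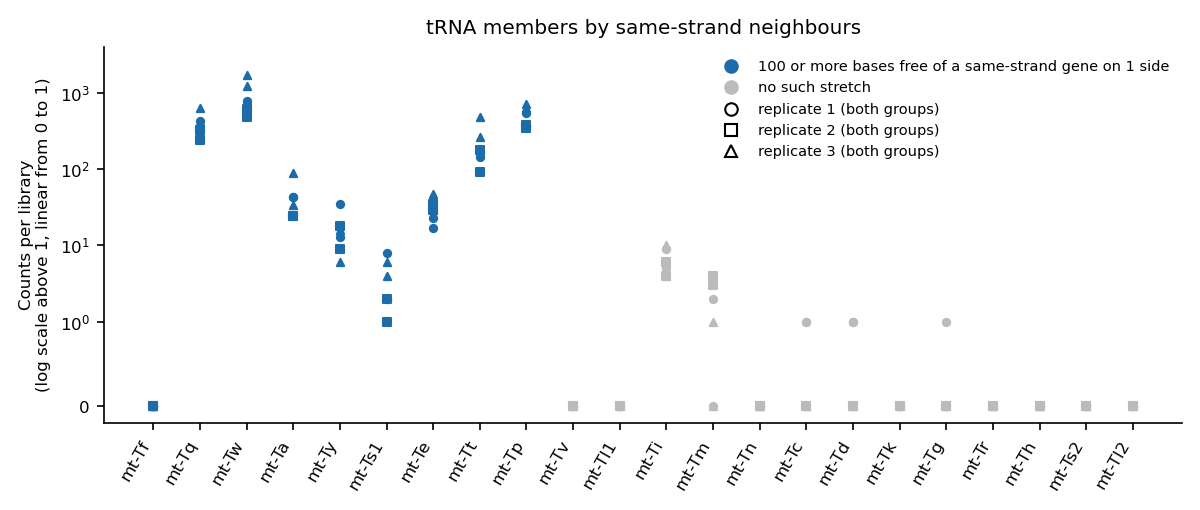
Counts per library of the 22 tRNA members on an axis that is linear from 0 to 1 and logarithmic above, 6 libraries each, with triangles for the libraries numbered 3. Of the 9 genes with 100 or more bases free of a same-strand gene on 1 side, 8 had counts in every library, and the other 13 reached at most 10 counts.

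mt-Tw (tryptophan), which follows mt-Nd2, had the most counts: 783, 622 and 1699 with AAV-GFP and 703, 488 and 1245 with AAV-RBM20. mt-Tq (glutamine), on the minus strand, had 364, 324 and 628 counts and 430, 240 and 357 counts. mt-Tp (proline), beside mt-Tt on the opposite strand, had 363, 376 and 725 and 548, 345 and 643. In all 3 the groups overlapped, and mt-Tw and mt-Tp were highest in the library numbered 3 of each group. mt-Tt (threonine), which follows mt-Cytb, had 165, 177 and 478 counts with AAV-GFP and 143, 92 and 263 with AAV-RBM20. Each AAV-RBM20 library was below its same-numbered partner in CPM, the groups overlapped, and the log2 fold change of -0.75 ± 0.42 was the lowest among the tRNAs, with adjusted p = 0.657 in edgeR. DESeq2 with the replicate block gave -0.77 with adjusted p = 0.0392. mt-Ta (alanine) had 43, 24 and 90 counts and 43, 24 and 34, and mt-Te (glutamate) had 23, 35 and 47 and 17, 29 and 29. mt-Ty (tyrosine) had 13, 9 and 16 counts with AAV-GFP and 35, 18 and 6 with AAV-RBM20, spanning both sides of the AAV-GFP range. Its log2 fold change of 0.53 ± 0.59 was the highest of all members, with adjusted p = 0.798 in edgeR.

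Expression of mtDNA depends on nuclear genes, and 77 of these in 6 lists were read from the same fit. Of the 77, 0 passed at adjusted p in edgeR, against 0.0% of all genes, and 2 were lower at an unadjusted p under 0.05, against 3.82%. Log2 fold changes were negative for 47 and positive for 30, with a median of -0.04. With the replicate block 0 passed and 8 had an unadjusted p under 0.05, against 18.8% of all genes. Ranges of CPM did not overlap for 4 of the 77 with AAV-RBM20 lower and for 1 with AAV-RBM20 higher. Over all 17222 genes tested the corresponding numbers were 1557 and 1328.

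Of the 10 transcription genes, 0 passed, with 6 negative and a median of -0.15. Polrmt, the mitochondrial RNA polymerase, stood at 33.8, 32.6 and 25.1 CPM with AAV-GFP and at 29.7, 29.8 and 20.2 CPM with AAV-RBM20 (log2 fold change -0.20 ± 0.19). It was lowest in the library numbered 3 of each group, where the protein-coding mitochondrial share was highest. Tfam, which packages mtDNA and starts its transcription, stood at 36.4, 33.7 and 51.1 CPM and at 31.4, 35.3 and 39.2 CPM (-0.20 ± 0.18), highest in the same libraries. Tfb2m, the promoter-melting factor, gave -0.22 ± 0.16, and Mterf3, a negative regulator of mtDNA transcription, 0.14 ± 0.12. All 4 overlapped between groups.

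Among 12 replication and maintenance genes, 1 was lower at an unadjusted p under 0.05 and 7 were negative. That gene, Top1mt, the mitochondrial topoisomerase, stood at 10.1, 9.85 and 10.4 CPM with AAV-GFP and at 8.36, 7.84 and 6.77 CPM with AAV-RBM20, without overlap. Its log2 fold change was -0.40 ± 0.14, with adjusted p = 0.618 in edgeR. Dna2, a nuclease-helicase, stood near 1 CPM with AAV-GFP (0.931 to 1.11) and at 1.22 to 1.83 with AAV-RBM20, also without overlap, and gave 0.58 ± 0.27 with adjusted p = 0.641 in edgeR. Of 17 processing and modification genes, 0 had an unadjusted p under 0.05. Mrm2, an rRNA methyltransferase, gave -0.24 ± 0.19 and Trit1, a tRNA modifying enzyme, 0.22 ± 0.18.

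RNA stability and decay (17 genes, 11 negative, 1 lower at an unadjusted p under 0.05) held the lowest log2 fold change of the 77. Slirp, the partner that holds mitochondrial mRNAs together with LRPPRC, stood at 16.2, 17.8 and 27.2 CPM with AAV-GFP and at 11.6, 14.2 and 17.5 CPM with AAV-RBM20. Each AAV-RBM20 library was below its same-numbered partner, the groups overlapped through AAV-RBM20 replicate 3, and the log2 fold change was -0.50 ± 0.23 with adjusted p = 0.641 in edgeR (0.107 with the replicate block). Lrpprc itself stood at 134, 122 and 104 CPM and at 136, 135 and 122 CPM, with overlap, and gave 0.13 ± 0.14. Pde12, which removes spurious adenosines from mitochondrial RNAs, stood at 13.9, 16.4 and 19.7 CPM and at 11.8, 12.6 and 13.0 CPM. Its groups did not overlap, and it gave -0.42 ± 0.15 with adjusted p = 0.618 in edgeR.

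Of 12 translation factors, 9 were negative and 0 had an unadjusted p under 0.05, with Gfm2, a ribosome recycling factor, at -0.16 ± 0.13 and Mtif3, an initiation factor, at -0.18 ± 0.17. Of 9 regulators, 5 were positive and 0 had an unadjusted p under 0.05. Ppargc1a, the coactivator that drives mitochondrial biogenesis, stood at 57.5, 59.9 and 62.1 CPM with AAV-GFP and at 59.8, 61.8 and 80.1 CPM with AAV-RBM20, with AAV-RBM20 replicate 3 alone above the AAV-GFP range, and gave 0.17 ± 0.15. Ppara, a fatty acid receptor, gave 0.30 ± 0.21. These lists had medians between -0.15 and 0.04, and the 6 aligned nuclear copies of mitochondrial genes, described with the same fit, had a median of -0.46 with 5 of 6 negative and 0 past adjusted p.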

How the data were processed

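RNA-seq counts per gene of 6 tibialis anterior samples (3 AAV-GFP, 3 AAV-RBM20) were deposited by the authors, who aligned paired reads of 100 bases with HISAT2 to mm10 and counted with HTSeq. Versions, the annotation release, the strand setting and the treatment of reads with several alignments are not given in the sources used here. A second table of DESeq2-normalised values was not used. Library totals were 44880069, 43868934 and 52012120 counts with AAV-GFP and 54226618, 41524656 and 41400132 with AAV-RBM20. The floor given for genes at 0 covers counting error only.

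Gene symbols, classes, coordinates and transcript sequences came from GENCODE M21 (GRCm38), in which 55141 of 55401 identifiers had a symbol. Counts of all genes were filtered with filterByExpr, which left 17222, scaled by the trimmed mean of M-values and tested by quasi-likelihood in edgeR 4.0.16 (R 4.3.3), with Benjamini-Hochberg adjustment over all genes tested and a threshold of 0.05. CPM use the scaled library sizes, and shares use raw totals. Alternatives were DESeq2 1.42.0, limma-voom 3.58.1, other scalings and filters, single libraries left out and the replicate block. Scripts were tested on simulated data. Figures were drawn with matplotlib.

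Deviations from the group means correlated between same-numbered libraries at 0.42, 0.20 and 0.48 over 17222 genes, all above the minimum of 0.1 set for pairing. Of the differently numbered pairs, 2 exceeded it as well (0.22 for AAV-GFP 2 with AAV-RBM20 1, 0.13 for AAV-GFP 1 with AAV-RBM20 2), and the other 4 were negative. Deviations cancel out within a group, so a departure shared by the libraries numbered 3 raises the correlations among the rest. The minimum therefore cannot decide how the libraries numbered 1 and 2 pair. Numbers came from the sample titles (1 to 3), whereas the count columns number the AAV-RBM20 samples 4 to 6. No replicates agreed within sampling noise.

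Log2 fold change, SE and adjusted p were given for the rRNA genes, mt-Nd6 and the members with the highest and the lowest log2 fold change in each class. For Polrmt, Tfam, Lrpprc, Ppargc1a and the 2 genes of lowest p in each nuclear list, log2 fold change and SE were given, with adjusted p for some. mt-Co1, mt-Co2, mt-Nd1, mt-Nd2, mt-Nd5 and mt-Cytb were added after their values were seen, as were Gm23935, Gm15564, Rn7s1, Rn7sk, Ttn and Arntl. The members and lists were chosen with earlier results of these data known. Of the listed genes, 1 mitochondrial RNA processing gene and 3 nuclear rRNA loci had no row matched here.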

Additional observations from a re-analysis of the deposited data

How the results depend on the processing

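The count of members past the adjusted threshold, 0 in edgeR, was 1 with the replicate block, 1 with the block and mitochondrial counts left out of the scaling, 6 without both libraries numbered 3 and 8 in DESeq2 with the block. For the nuclear lists it was 1 (Slirp) in DESeq2 with the block and 0 under the other settings. In edgeR the replicate block changed no other call of a member or listed nuclear gene. The estimate of mt-Nd4l, 0.01, became -0.11 with the block, -0.12 with the block and the 6 copies summed, -0.12 with the block and mitochondrial counts left out of the scaling, -0.14 in DESeq2 with the block, -0.0069 in DESeq2, -0.39 without both libraries numbered 3, -0.16 in limma-voom and -0.0037 with no filter, and with 1 library left out it ranged from -0.59 to 0.32. mt-Nd6 became 0.017 without both libraries numbered 3 and ranged from -0.31 to 0.065 with 1 library left out. With 1 library left out, mt-Co1 ranged from -0.38 to 0.12 and Tfam from -0.31 to 0.0082, the highest value of each without AAV-GFP replicate 3. The cause was not tested.

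Over 28 named genes, 527 of 556 values under other settings kept direction and call, 14 passed the threshold anew, 15 changed sign and 0 lost a call. Each group has 3 libraries, of which 1 stands apart, and mt-Atp8, the tRNAs and low nuclear genes such as Dna2 also had few counts. The difference in mitochondrial share ranged from -2.78 to 0.47 percentage points with 1 library left out and was -1.99 with scaled library sizes. Upper-quartile scaling moved the median of all genes to 0.05.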
